A study of Mus musculus with 8 samples.

Results

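The fibro-adipogenic progenitor genes are 10 genes taken by name from the deposited count table, which lists 54532 genes: *Pdgfra*, *Dcn*, *Lum*, *Fbln1*, *Fbn1*, *Mfap5*, *Pi16*, *Dpp4*, *Ly6a* and *Clec3b*. All 10 were found, and all 10 had at least 94 counts in every library, so that none was lost to the filter on low counts. Fibro-adipogenic progenitors are mesenchymal cells that lie between the vessels and the parenchyma of muscle and fat, where they secrete extracellular matrix and can become adipocytes or myofibroblasts. They are recognised by the PDGF receptor alpha and by SCA-1, the product of *Ly6a*, and in fat a DPP4+ PI16+ interstitial population is regarded as upstream of the committed preadipocytes. Of the 10 genes, *Ly6a* is also known from endothelial cells and lymphocytes and *Dpp4* (CD26) from T cells, whereas *Pdgfra* and the secreted matrix genes are classical markers of fibroblastic cells.

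RNAseq was performed on GFP+ (mG+) cells sorted by FACS from female mice aged 8 months. WT libraries came from Tie2e-cre, TERT+/+, mTmG mice and KO libraries from Tie2e-cre, TERTfl/fl, mTmG littermates, so that both genotypes carried the Cre transgene, driven by the endothelial Tie2e promoter, and the reporter. In mTmG mice a cell and its descendants switch from Tomato to GFP once Cre has acted, so the sort records Cre history and not present endothelial identity. Mice on HFD, begun at 1 month of age, gave SAT (inguinal fat), and mice on chow gave SAT, VAT (gonadal fat) and gastrocnemius muscle. Each of these 4 conditions has 1 WT and 1 KO library, and whether several mice were pooled in a library is not stated.

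*Tert* itself had 114 counts in WT and 0 in KO from SAT on HFD, 70 and 11 from SAT on chow, and 24 and 7 from muscle. In VAT there were 3 counts under the label WT and 9 under the label KO, in the deeper library. These few counts did not bear the labels out, so VAT directions below rest on the labels alone. Library totals ran from 6214269 to 18855772 counts. In SAT on HFD 16076 genes were detected in WT and 16034 in KO, against 19802 to 24688 in all other libraries. The SAT chow WT library stood apart, with 299 CPM (counts per 1000000 counts of the scaled library) of the nuclear RNA *Malat1* against 2176 to 6005 CPM in the other 7. All 17 endothelial markers were detected in every library (431 to 3791 CPM summed), and so were all 10 T cell, all 8 B cell and all 9 macrophage markers. In such bulk samples fewer cells of a type and less RNA per cell cannot be told apart.

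*Pdgfra* (ENSMUSG00000029231) lies on chromosome 5, positions 75152292 to 75198215 of GRCm38, on the plus strand. *Fbln1* (ENSMUSG00000006369) lies on chromosome 15, positions 85205949 to 85286535, plus strand, and *Dpp4* (ENSMUSG00000035000) on chromosome 2, positions 62330073 to 62412231, minus strand. *Dcn* (ENSMUSG00000019929, chromosome 10, 97479609 to 97518143) and *Lum* (ENSMUSG00000036446, chromosome 10, 97565128 to 97572703) are neighbours on the same strand. The remaining genes are *Fbn1* (ENSMUSG00000027204, chromosome 2, 125300594 to 125507993), *Mfap5* (ENSMUSG00000030116, chromosome 6, 122505845 to 122529290), *Pi16* (ENSMUSG00000024011, chromosome 17, 29318877 to 29329413), *Ly6a* (ENSMUSG00000075602, chromosome 15, 74994877 to 74998031) and *Clec3b* (ENSMUSG00000025784, chromosome 9, 123150946 to 123157432). All are protein coding, and 9 of the 10 have the same coordinates in GENCODE M21, *Pi16* being the exception. *Pdgfra*, *Fbn1*, *Pi16* and *Dpp4* overlap a gene on the opposite strand, and the use of strand in counting is not given in the sources used here. Those opposite genes that were counted had at most 18 counts in any library (*Gm13561*, opposite *Dpp4*), against at least 224 for the member beside them. *Ly6a* belongs to a family of similar genes, so its reads may be shared with relatives.

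RefSeq promoter windows (GRCm38.p6) were at hand for 5 of the 10 genes. Printed here, 5′ to 3′ on the strand of the gene, are the 250 bases before the start of *Pdgfra* and *Fbln1*, whose levels moved together across the libraries, and of *Dpp4*, whose level did not follow them. Capitals mark matches to any of 6 short motifs searched on both strands: the TATA box (TATAAA), the CCAAT box, the GC box (GGGCGG), the AP-1 site (TGANTCA), the E-box (CANNTG) and the TEAD site (GGAATG).
*Pdgfra*, chr5:75152001-75152250, plus strand: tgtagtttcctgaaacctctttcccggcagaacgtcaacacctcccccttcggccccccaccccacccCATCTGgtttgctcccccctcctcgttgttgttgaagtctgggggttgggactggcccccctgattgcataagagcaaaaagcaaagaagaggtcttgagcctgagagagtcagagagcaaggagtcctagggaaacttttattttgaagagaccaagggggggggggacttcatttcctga
*Fbln1*, chr15:85205699-85205948, plus strand: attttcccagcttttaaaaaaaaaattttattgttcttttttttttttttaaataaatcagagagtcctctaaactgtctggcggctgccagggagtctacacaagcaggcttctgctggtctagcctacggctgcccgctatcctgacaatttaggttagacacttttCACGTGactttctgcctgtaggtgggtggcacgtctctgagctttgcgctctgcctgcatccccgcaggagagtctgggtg
*Dpp4*, chr2:62412232-62412481, minus strand: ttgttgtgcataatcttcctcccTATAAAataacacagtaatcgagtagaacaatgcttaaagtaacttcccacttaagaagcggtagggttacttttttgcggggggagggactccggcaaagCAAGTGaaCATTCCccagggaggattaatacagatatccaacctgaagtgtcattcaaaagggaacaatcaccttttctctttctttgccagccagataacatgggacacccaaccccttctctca
The *Pdgfra* and *Fbln1* windows printed each held 1 match, to CANNTG, a motif present in 66.2% of all 32851 windows of this length. The *Dpp4* window held 1 match to TATAAA, found in 12.4% of windows, 1 to CANNTG and 1 to GGAATG, found in 12.6%. CCAAT is held by 33.8% of windows, GGGCGG by 32.7% and TGANTCA by 6.75%. *Fbln1* has a second RefSeq start whose window, starting at position 85205758 and overlapping the one printed, held 2 matches to CANNTG and 1 to GGGCGG. A match is a string of letters and not a measured binding site.

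Per kb of gene length, which allows genes to be compared, the median level over the 8 libraries was highest for *Ly6a* (103 CPM per kb) and *Dcn* (64.2), followed by *Clec3b* (46.5), *Lum* (32.3) and *Pi16* (26.5). *Fbn1* (15.0), *Dpp4* (14.9), *Fbln1* (5.93), *Mfap5* (5.19) and *Pdgfra* (3.83) were lower on this scale. The transcript of the receptor that defines the cells was thus the least abundant per length, and those of the secreted proteoglycans were among the most abundant. Levels below are CPM after scaling of the libraries by TMM, not divided by length. KO over WT is given as a log2 ratio with its 95% counting interval in parentheses, which covers counting error only, because there is no second library of the same tissue, diet and genotype. A gene is called beyond 2-fold where that whole interval lies past 2-fold.

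**Figure D1:**
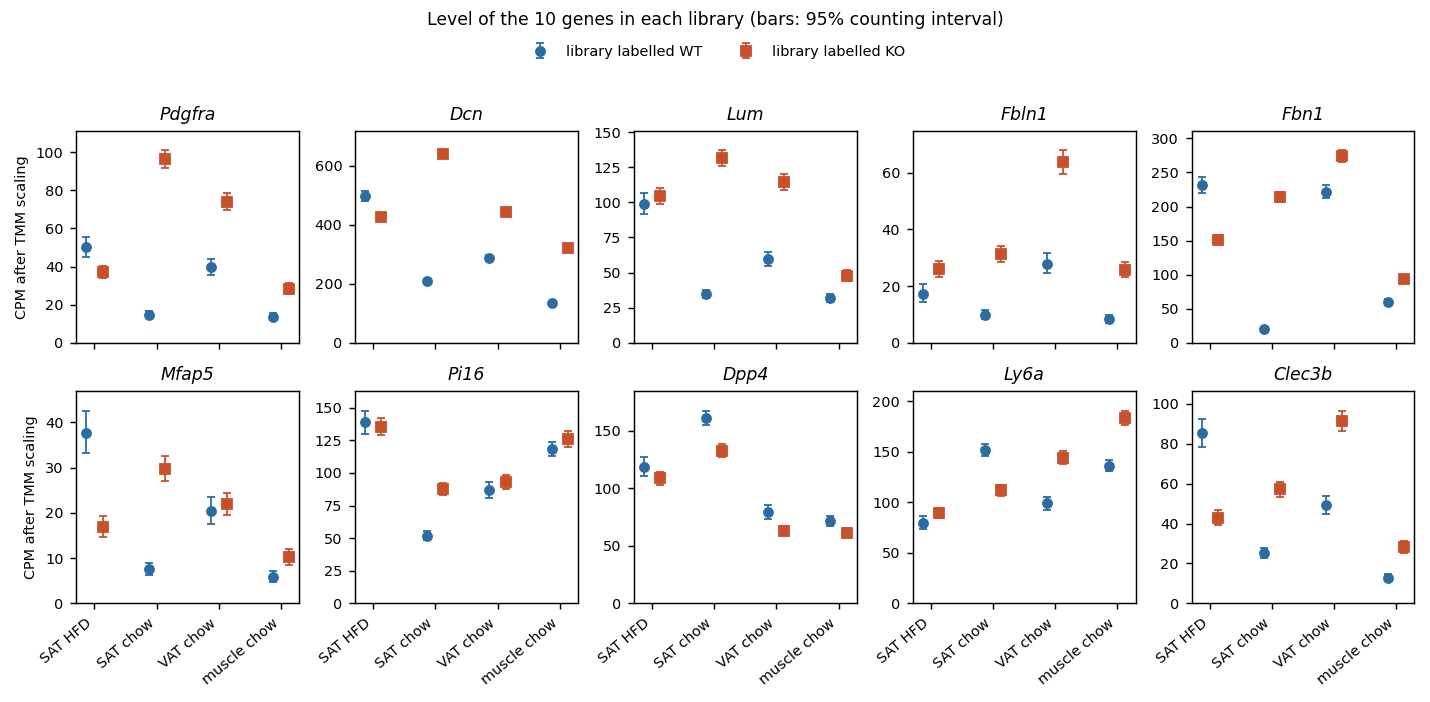
Level of each of the 10 genes (CPM after TMM scaling, vertical axis from 0) in the WT (blue circles) and KO (orange squares) library of each tissue and diet, with 95% counting intervals as bars. Pdgfra ran from 13.7 CPM in muscle WT to 96.3 CPM in SAT chow KO, and the highest library of Pi16, Dpp4 and Ly6a was 2.68, 2.62 and 2.30 times the lowest, against 4.16 times or more for the others.

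*Pdgfra* encodes the receptor for PDGF-A and PDGF-C by which these progenitors are sorted. Its level was 50.03 CPM in WT and 37.0 in KO from SAT on HFD, 14.7 and 96.3 from SAT on chow, 39.7 and 73.9 from VAT by label, and 13.7 and 28.2 from muscle. The KO library was the higher one in the 3 chow pairs and the lower one on HFD. KO over WT was 2.71 (2.51 to 2.91) in SAT on chow, 1.04 (0.80 to 1.28) in muscle, 0.89 (0.72 to 1.07) in VAT and −0.44 (−0.64 to −0.23) in SAT on HFD. By condition, both muscle libraries lay below both libraries of SAT on HFD, while SAT and VAT overlapped.

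*Dcn* and *Lum* encode decorin and lumican, small leucine-rich proteoglycans that bind collagen fibrils and set their spacing. *Dcn* was at 498 CPM in WT and 427 in KO from SAT on HFD, 208 and 642 from SAT on chow, 287 and 443 from VAT by label, and 134 and 323 from muscle. *Lum* was at 98.9 and 104 CPM from SAT on HFD, 34.5 and 132 from SAT on chow, 59.3 and 114 from VAT, and 31.6 and 47.7 from muscle. Both genes were higher in the library labelled KO in each chow pair, with the lowest values in WT muscle and the highest in KO SAT on chow. KO over WT for *Dcn* was 1.62 (1.57 to 1.68) in SAT on chow, 1.27 (1.20 to 1.34) in muscle, 0.63 (0.56 to 0.69) in VAT and −0.22 (−0.29 to −0.16) in SAT on HFD. For *Lum* it was 1.93 (1.80 to 2.07), 0.59 (0.42 to 0.76), 0.95 (0.80 to 1.09) and 0.08 (−0.06 to 0.21) in the same order, the last not distinguishable from 0. No neighbouring conditions in the order of mean *Dcn* level (SAT HFD, SAT chow, VAT, muscle) were separated by their 2 libraries, nor were those of *Lum* (SAT HFD, VAT, SAT chow, muscle).

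*Fbn1*, *Mfap5* and *Fbln1* belong to the elastic fibre system: fibrillin-1 builds the microfibrils, MFAP5 (MAGP-2) decorates them, and fibulin-1 binds elastin, fibronectin and basement membrane. *Fbn1* had the widest range of the 10, from 20.5 CPM in SAT chow WT to 274 CPM in the VAT library labelled KO, 13.3-fold. It was at 232 CPM in WT and 151 in KO from SAT on HFD, 214 in KO from SAT on chow, 222 from VAT under the label WT, and 60.4 and 93.9 from muscle. The SAT chow WT library was thus far below all other libraries for this gene, and the ratio in that pair was 3.37 (3.21 to 3.54), 10.4-fold. In the other pairs it was 0.64 (0.52 to 0.76) in muscle, 0.30 (0.23 to 0.38) in VAT and −0.62 (−0.71 to −0.52) in SAT on HFD.

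*Mfap5* was the least counted of the 10, with 94 counts in WT muscle. Its levels were 37.7 CPM in WT and 16.8 in KO from SAT on HFD, 7.55 and 29.7 from SAT on chow, 20.4 and 21.8 from VAT by label, and 5.77 and 10.2 from muscle. The direction in SAT thus differed between the diets: KO over WT was −1.16 (−1.43 to −0.90) on HFD and 1.97 (1.69 to 2.27) on chow. Muscle gave 0.81 (0.43 to 1.21), and VAT gave 0.10 (−0.17 to 0.37), within counting error.

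*Fbln1* was the one member higher in the library labelled KO in all 4 pairs beyond counting error. Its levels were 17.2 CPM in WT and 26.0 in KO from SAT on HFD, 9.96 and 31.2 from SAT on chow, 27.9 and 63.6 from VAT by label, and 8.41 and 25.8 from muscle. VAT had the highest mean, with both libraries higher than both of SAT on HFD, the next in order. VAT and SAT on chow overlapped, as the VAT library labelled WT (27.9 CPM) was below SAT chow KO (31.2 CPM). KO over WT was 1.64 (1.39 to 1.91) for SAT on chow, 1.61 (1.33 to 1.91) for muscle, 1.19 (0.99 to 1.40) for VAT and 0.60 (0.29 to 0.91) for SAT on HFD. The VAT interval ended just short of 2-fold.

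*Clec3b* encodes tetranectin, a secreted plasminogen-binding lectin. It was at 85.3 CPM in WT and 43.0 in KO from SAT on HFD, 25.1 and 57.2 from SAT on chow, 49.2 and 91.5 from VAT by label, and 13.0 and 28.2 from muscle. As with *Mfap5*, the WT library was the higher one on HFD and the lower one on chow. KO over WT was 1.19 (1.02 to 1.36) for SAT on chow, 1.12 (0.87 to 1.37) for muscle, 0.89 (0.74 to 1.05) for VAT and −0.99 (−1.16 to −0.82) for SAT on HFD.

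*Pi16*, encoding a secreted peptidase inhibitor of the interstitial progenitors, and *Dpp4*, encoding the surface peptidase CD26 by which those cells are sorted, differed within pairs by less than 2-fold throughout. *Pi16* was at 139 CPM in WT and 135 in KO from SAT on HFD, 51.7 and 87.4 from SAT on chow, 86.7 and 92.9 from VAT by label, and 119 and 126 from muscle. SAT on HFD lay above muscle, and muscle above VAT, with no overlap of their 2 libraries, while VAT and SAT on chow overlapped. KO over WT for *Pi16* was 0.76 (0.63 to 0.88) in SAT on chow, and its intervals in the other pairs included 0: −0.04 (−0.15 to 0.08) in SAT on HFD, 0.10 (−0.03 to 0.23) in VAT and 0.09 (−0.01 to 0.18) in muscle.

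*Dpp4* was at 119 CPM in WT and 109 in KO from SAT on HFD, 161 and 133 from SAT on chow, 79.4 and 63.3 from VAT by label, and 71.7 and 61.6 from muscle. All 4 SAT libraries were above all VAT and muscle libraries, and SAT on chow was above SAT on HFD. It was the one member that was lower in the library labelled KO in the 3 chow pairs: −0.28 (−0.37 to −0.20) in SAT, −0.33 (−0.47 to −0.18) in VAT and −0.22 (−0.35 to −0.09) in muscle. On HFD the ratio was −0.12 (−0.25 to 0.00), which included 0.

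*Ly6a*, encoding the GPI-anchored surface protein SCA-1, was at 80.0 CPM in WT and 89.5 in KO from SAT on HFD, 152 and 112 from SAT on chow, 98.9 and 144 from VAT by label, and 137 and 184 from muscle. It was lowest in SAT on HFD, where both libraries were below those of every other condition, and highest in muscle KO. KO over WT was 0.54 (0.43 to 0.66) in VAT, 0.43 (0.34 to 0.51) in muscle, 0.16 (0.02 to 0.31) in SAT on HFD and −0.44 (−0.53 to −0.35) in SAT on chow. Its direction in SAT on chow was opposite to that of *Pdgfra* and the matrix genes.

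**Figure D2:**
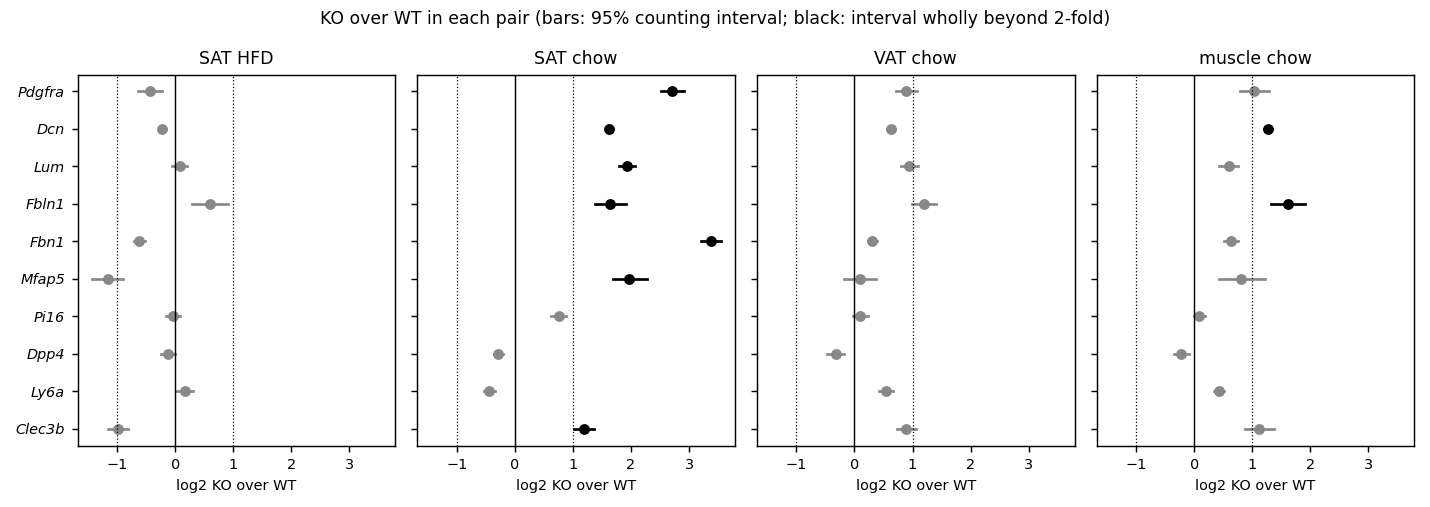
KO over WT (log2, horizontal axis) of the 10 genes in each of the 4 pairs, with 95% counting intervals as bars, black where the interval lies wholly beyond 2-fold and dotted lines at 2-fold. In SAT on chow 7 genes are black, in muscle 2 (Dcn and Fbln1), and in VAT and SAT on HFD 0.

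Set against all genes, the pairs differed. In SAT on chow 7 of the 10 members (*Pdgfra*, *Dcn*, *Lum*, *Fbln1*, *Fbn1*, *Mfap5* and *Clec3b*) were higher in KO beyond 2-fold, where 19.1% of the 16908 genes tested were, and 0 were lower, where 11.5% were. The members' median was 1.63, against 0.00 for all genes. In muscle 2 of 10 were higher beyond 2-fold (2.76% of all genes) and 0 lower (2.01%), with a median of 0.72. In VAT 0 of 10 were beyond 2-fold either way (2.4% of genes higher and 2.09% lower by label), while 7 of 10 were higher beyond counting error, as were 26.6% of all genes, and 1 was lower, as were 24.7%, with a median of 0.58. In SAT on HFD 0 of 10 were beyond 2-fold (12.9% of genes higher and 10.9% lower), 5 were lower and 2 higher beyond counting error, as were 33.2% and 39.4% of all genes, and the median was −0.17.

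Summed over the 10 genes, the level was 1357 CPM in WT and 1139 in KO from SAT on HFD, 685 and 1533 from SAT on chow, 970 and 1383 from VAT by label, and 594 and 928 from muscle. The ratio of these sums was 1.16 (1.13 to 1.19) for SAT on chow, 0.64 (0.61 to 0.68) for muscle, 0.51 (0.47 to 0.55) for VAT and −0.25 (−0.29 to −0.22) for SAT on HFD. Without *Ly6a*, which other sorted cells also express, it was 1.41, 0.70, 0.51 and −0.28 in the same order. Between the diets, the summed level in SAT differed more between the WT libraries than between the KO libraries.

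With tissue and diet as a block, the quasi-likelihood test of edgeR over all 8 libraries called 0 of the 10 members at an adjusted p of 0.05, with 0.00589% of the 16971 genes tested called higher in KO and 0.0% lower. *Fbln1* had the largest change, 1.27 (SE 0.29, unadjusted p = 0.0023, adjusted p = 0.9996), higher in KO by label in 4 of 4 pairs. Next by p-value, though not by size, were *Lum* at 0.88 (SE 0.32, unadjusted p = 0.024) and *Dcn* at 0.83 (SE 0.34, unadjusted p = 0.040), and both had an adjusted p of 0.9996 in edgeR's test. These were the 3 members with an unadjusted p under 0.05 in edgeR's test, which 277 of the 16971 genes tested had. The estimates were 1.04 (SE 0.47) for *Pdgfra*, 0.83 (SE 0.60) for *Fbn1*, 0.58 (SE 0.39) for *Clec3b*, 0.43 (SE 0.51) for *Mfap5*, 0.22 (SE 0.22) for *Pi16*, 0.18 (SE 0.23) for *Ly6a* and −0.24 (SE 0.19) for *Dpp4*. DESeq2's Wald test also called 0 members, the lowest adjusted p being 0.111 for *Fbln1*.

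**Figure D3:**
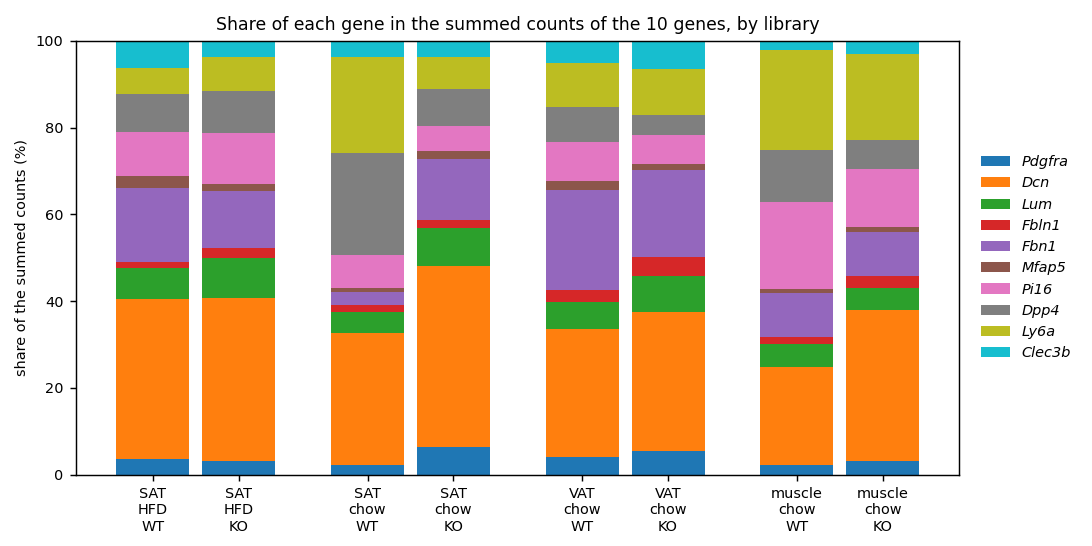
Share of each of the 10 genes in their summed counts (percent, stacked to 100) in each library. Dpp4 and Ly6a took 23.6% and 22.1% in SAT chow WT and 8.65% and 7.30% in SAT chow KO.

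The mix of the 10 genes can be compared without any scaling between libraries. It is still open to the trend with gene length in the SAT chow pair, described below. There genes as long as *Ly6a* had a median log2 KO over WT of −0.61, and those as long as *Dpp4* 0.07. *Dpp4* took 23.6% (22.8 to 24.4, exact binomial 95% interval) of the members' summed counts in SAT chow WT and 8.65% (8.30 to 9.01) in KO, 8.18% (7.61 to 8.77) and 4.58% (4.29 to 4.89) in the VAT pair by label, and 12.1% (11.4 to 12.7) and 6.64% (6.21 to 7.09) in muscle. Its share was thus lower in the library labelled KO of each chow pair beyond counting error. In SAT on HFD it was 8.74% in WT and 9.56% in KO. *Ly6a* took 22.1% and 7.30% of the counts from SAT on chow, 23.0% and 19.8% in muscle, and 10.2% and 10.4% in VAT by label.

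Counts of *Dpp4* per count of *Pdgfra* went from 10.96 (9.60 to 12.6) in WT to 1.38 (1.29 to 1.47) in KO from SAT on chow, from 1.997 (1.76 to 2.27) to 0.857 (0.782 to 0.939) in VAT by label, and from 5.21 (4.52 to 6.04) to 2.18 (1.93 to 2.47) in muscle. For *Pi16* the counts per *Pdgfra* count went from 3.51 (3.04 to 4.07) to 0.907 (0.844 to 0.976), from 2.18 (1.92 to 2.48) to 1.26 (1.16 to 1.37), and from 8.62 (7.503 to 9.94) to 4.46 (3.99 to 4.995). Relative to *Pdgfra*, both genes were thus lower in the library labelled KO of every chow pair, where *Pdgfra* itself was higher. In SAT on chow genes as long as *Pdgfra* had a median log2 KO over WT of 0.71, against 0.07 for those as long as *Dpp4* and −0.004 for *Pi16*. In SAT on HFD the ratios were instead higher in KO, 3.66 (3.30 to 4.06) against 2.77 (2.45 to 3.15) for *Pi16* and 2.94 (2.65 to 3.27) against 2.37 (2.09 to 2.70) for *Dpp4*, the latter intervals overlapping.

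Tissue and diet were compared in the same edgeR fit, which has 2 libraries a condition, 1 of each genotype, so that the comparisons share libraries. None of the 10 members passed an adjusted p of 0.05 in any of these comparisons. For VAT over SAT on chow, 3.13% of genes were called higher and 1.87% lower, and the members nearest to the threshold were *Dpp4* at −1.04 (SE 0.27, adjusted p = 0.072, edgeR) and *Fbln1* at 1.24 (SE 0.40, adjusted p = 0.13, edgeR). For muscle over SAT on chow, 1.1% of genes were called higher and 0.165% lower. *Dpp4* was again nearest, at −1.14 (SE 0.27, adjusted p = 0.10, edgeR), and *Pi16* was at 0.84 (SE 0.31, adjusted p = 0.33, edgeR). DESeq2's Wald test called *Dpp4* and *Fbln1* in the first of these comparisons, where it called 2280 of 16971 genes. In the second it called *Dpp4*, among 1053 of 16971 genes.

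For muscle over VAT, 0.99% of genes were called higher and 1.03% lower in edgeR's test. The 7 members other than *Pi16*, *Dpp4* and *Ly6a* were all estimated lower in muscle, from −0.76 (SE 0.47) for *Dcn* to −1.80 (SE 0.54, adjusted p = 0.18, edgeR) for *Clec3b*, with *Fbln1* at −1.502 (SE 0.41, adjusted p = 0.12, edgeR). DESeq2's Wald test called *Clec3b* and *Fbln1*, among 1253 of 16971 genes. *Pi16* and *Ly6a* were estimated at 0.45 (SE 0.31) and 0.40 (SE 0.33), and *Dpp4* at −0.09 (SE 0.27). For SAT on HFD over SAT on chow, 0.0% of genes were called higher and 0.0% lower (1577 had an unadjusted p under 0.05, and DESeq2's Wald test called 246). *Pi16*, at 1.008 (SE 0.31, adjusted p = 0.50, edgeR), was the 1 member with an unadjusted p under 0.05. Leaving out the SAT chow KO library left the WT library that stood apart as the only SAT library on chow, so only effect sizes are given here. For SAT on HFD over SAT on chow, *Pi16* was then estimated at 1.38 and *Fbn1* at 3.18. For VAT over SAT on chow, *Dpp4* was at −1.08 and *Fbn1* at 3.53, and for muscle over SAT on chow *Fbn1* was at 1.84. Without the SAT chow WT library instead, *Fbn1* was at 0.06, 0.43 and −1.30 in the same order of comparisons.

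Other gene groups of these cells, listed with results of these data known, are read against the shares of all genes higher in KO beyond 2-fold given above (19.1% in SAT on chow, 2.76% in muscle, 2.4% in VAT and 12.9% in SAT on HFD). Of 10 fibrillar and beaded collagen genes, 10 were higher in KO beyond 2-fold in SAT on chow, 8 in VAT by label and 3 in muscle, with medians of 2.96, 1.68 and 0.92, and 0 in SAT on HFD, where *Col14a1* was lower (−1.45). *Col6a3*, a chain of the beaded microfibrils of collagen VI, had the largest ratio in SAT on chow (3.99) and VAT (2.33). Of 16 elastic fibre and microfibril genes, 10 were higher beyond 2-fold in SAT on chow, among them *Fbn2* (3.21) and *Eln*, the elastin gene (2.25), and 3 in muscle, with 1 in each of the other pairs. In SAT on HFD 1 was also lower beyond 2-fold, *Mfap4* (−1.74). Of the other small leucine-rich proteoglycans, 4 of 8 tested were higher in SAT on chow, 2 of 7 in VAT, 5 of 9 in muscle, where *Fmod*, encoding fibromodulin, was at 2.75 and *Chad* at 2.56, and 1 of 7 in SAT on HFD. Of 23 other fibroblast genes, 16 of 22 tested were higher beyond 2-fold in SAT on chow and 1 was lower, where 11.5% of all genes were lower. In VAT 4 of 23 were higher (*Pcolce*, 1.66) and in muscle 1 (*Igfbp6*, 1.56). In SAT on HFD 0 were higher and 2 were lower, among them *Cxcl14* (−2.78), where 10.9% of all genes were lower.

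Genes of the progenitor subtypes were less uniform. Of 14 genes of the DPP4+ interstitial cells, 7 were higher in KO beyond 2-fold in SAT on chow, with *Gfpt2* at 3.37 and *Tnxb* at 2.93, against 0 in VAT and 1 in muscle. In SAT on HFD 0 of the 14 were higher and 2 were lower, *Efhd1* (−2.58) and *Gfpt2* (−1.36), where 10.9% of all genes were lower. Of 10 committed preadipocyte genes, 2 were higher in SAT on chow, a share close to the 19.1% of all genes, namely *Col15a1* (2.42) and *Dlk1* (2.99, from 3 counts against 28). *Apoe* was lower (−1.27), and 0 were beyond 2-fold in the other pairs. Of 8 genes of CD142+ regulatory cells, 4 were higher in SAT on chow, 1 in VAT, 2 in muscle and 1 of 7 tested in SAT on HFD, with *Gdf10* at 3.13 in SAT on chow and 1.71 in muscle. Of 14 mesenchymal transcription factor genes, 7 of 13 tested were higher in SAT on chow, among them *Prrx1* (3.04) and *Tbx15* (4.45), 0 in VAT and 1 in muscle, where *Creb5* was lower (−1.40). In SAT on HFD 4 of 12 of these factor genes were higher and 2 lower, with *Osr2* going from 0 counts in WT to 75 in KO, *Tcf7l2* from 0 to 43 and *Osr1* from 0 to 36. Among the other PDGF genes, *Pdgfrb*, the receptor of pericytes and fibroblasts, was higher in the library labelled KO in all 3 chow pairs beyond 2-fold (2.33 in SAT, 1.69 in VAT and 1.46 in muscle). In SAT on HFD 0 of the 5 PDGF genes tested were higher and 2 were lower, the ligand genes *Pdgfa*, with 78 counts in WT and 0 in KO, and *Pdgfc* (−1.93). Both libraries of that pair detected fewer genes (16076 and 16034) than any other library. Genes of unrelated lists also went from or to 0 counts there, in both directions, such as *Cspg4* (0 to 48) and *Thbs4* (45 to 0). The part of low detection in these values was not tested. In the edgeR fit of VAT over SAT on chow, 5 of the 10 committed preadipocyte genes were called higher, including *Cd36* (3.34, SE 0.45, adjusted p = 0.011) and *Pparg* (2.37, SE 0.46, adjusted p = 0.029), whereas 0 members were. The other 3 were *Fabp4*, *Lpl* and *Apoe*. In the same comparison all 9 macrophage markers (median 3.67) and 10 of 17 endothelial markers (median 1.98) were called higher, and their part in the preadipocyte genes was not tested.

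Over the 8 libraries, *Lum* followed *Pdgfra* most closely of the members, with a Pearson correlation of log2 CPM of 0.94, rank 10 among 16970 genes. *Dcn* (0.92), *Mfap5* (0.90), *Clec3b* (0.87), *Fbn1* (0.86) and *Fbln1* (0.83) came next, and all 6 ranked 116 or better. *Pi16* (0.18), *Dpp4* (0.00) and *Ly6a* (−0.38) did not follow it. The closest non-members were *Adamts2*, a procollagen peptidase gene (0.97), *Plat* (0.97), *Gm44597* (0.96), *Col6a1* (0.96), *Prss23* (0.95), *Ogn* (0.95), *Col6a2* (0.94), *Mtx3* (0.94), *4930562F07Rik* (0.94) and *Pdzrn3* (0.94). These 8 points share libraries of 4 tissues and diets and their scaling, and the correlations are descriptions only.

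**Figure D4:**
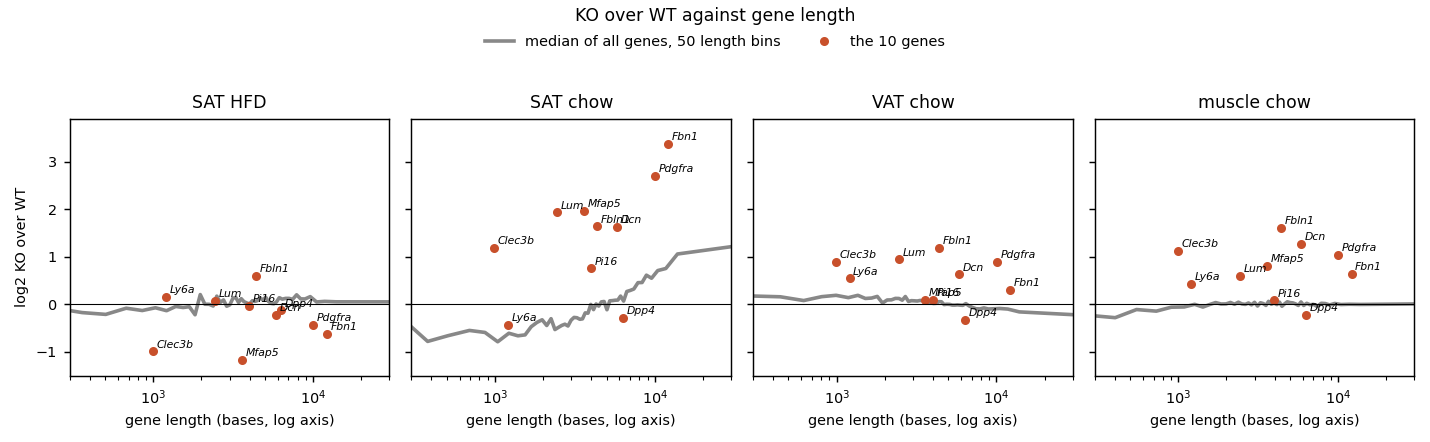
KO over WT (log2, vertical axis) of the 10 genes (orange points) against gene length (bases, log axis) in each pair, with the median of all genes in 50 length bins as the grey line. In SAT on chow the line rises with length over most of its range, and 8 of the 10 points lie above it by 0.76 or more, with Ly6a 0.17 above it and Dpp4 0.35 below it.

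In SAT on chow the ratio of all genes moved with gene length: the medians of 50 length bins ran from −0.79 to 1.55, against −0.28 to 0.23 in the other pairs. *Fbn1* (12128 bases) and *Pdgfra* (10024 bases) are the longest members, and genes of their length had medians of 0.75 and 0.71. Less these medians, *Fbn1* was at 2.62 and *Pdgfra* at 1.998. The short *Clec3b* (992 bases) moved the other way, from 1.19 to 1.98, and *Ly6a* (1205 bases) from −0.44 to 0.17. With this subtraction 7 of 10 members were beyond 2-fold in SAT on chow, and the median was 1.81.

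**Figure D5:**
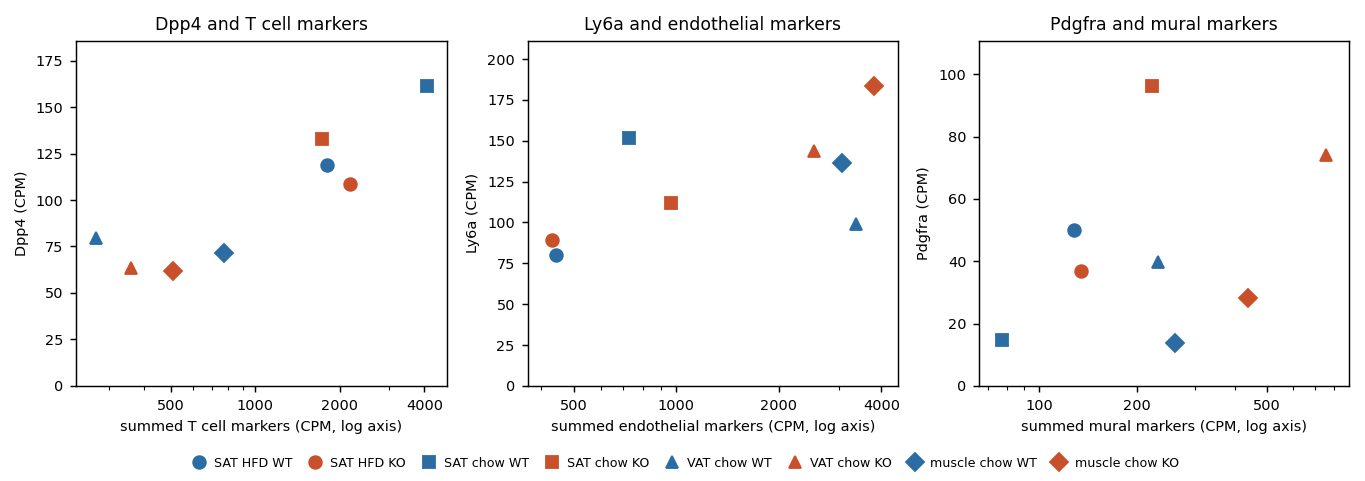
CPM of Dpp4, Ly6a and Pdgfra (vertical axes from 0) against the summed CPM of T cell, endothelial and mural markers (log axes) in the 8 libraries, WT in blue and KO in orange, with the shape giving tissue and diet. The 4 SAT libraries lie at the upper right for Dpp4 and T cell markers, and both libraries of SAT on HFD lie at the lower left for Ly6a and endothelial markers.

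Between tissues, markers of other cells in the sort moved beside some members, though within pairs they often did not. The 10 T cell markers summed to 1802 CPM in WT and 2182 in KO from SAT on HFD, 4073 and 1724 from SAT on chow, 271 and 362 from VAT by label, and 774 and 511 from muscle, so that SAT was above VAT and muscle for these markers as it was for *Dpp4*. In edgeR's test all 10 T cell markers were called lower in VAT than in SAT on chow, for example *Cd3d* at −3.60 (SE 0.55, adjusted p = 0.014). Log2 KO over WT of the T cell sum was 0.28 in SAT on HFD, −1.24 in SAT on chow, 0.42 in VAT by label and −0.60 in muscle. For *Dpp4* it was −0.12, −0.28, −0.33 and −0.22 in the same order. For *Ly6a*, the 17 endothelial markers summed to 431 to 443 CPM in SAT on HFD, where *Ly6a* was lowest. They summed to 3060 to 3791 in muscle, where its mean was highest, with 728 to 965 for SAT on chow and 2540 to 3360 for VAT. Log2 KO over WT of the endothelial sum was −0.04 in SAT on HFD, 0.41 in SAT on chow, −0.40 in VAT by label and 0.31 in muscle. For *Ly6a* it was 0.16, −0.44, 0.54 and 0.43 in the same order. The part of T cells in the *Dpp4* level and of endothelial cells and neutrophils in the *Ly6a* level was not tested.

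The sum of the mural markers (pericytes and smooth muscle), which share the stroma with these progenitors, was higher in the library labelled KO of each chow pair, as most matrix members were. The 11 markers summed to 77.0 CPM in WT and 222 in KO from SAT on chow, 232 and 758 from VAT by label, 262 and 436 from muscle, and 128 and 134 from SAT on HFD. Of them 6 of 10 tested were higher beyond 2-fold in SAT on chow and 1 was lower. In VAT 7 of 11 were higher beyond 2-fold, and in muscle 3 of 10, where 2 were lower beyond counting error. In SAT on HFD 2 of 10 were higher and 2 lower beyond 2-fold. Over the 8 libraries the correlation of their sum with the matrix members ran from 0.06 (*Mfap5*) to 0.65 (*Fbln1*), a description only. Tenocyte markers, of which *Kera* was detected in the SAT chow KO and muscle KO libraries alone, summed to 79.1 and 155 CPM in muscle and to at most 15.9 CPM elsewhere. Adipocyte markers were near the floor, at 1.36 to 24.7 CPM summed over 8 genes, with *Adipoq*, *Plin1*, *Cidec*, *Lep*, *Retn*, *Cfd* and *Pck1* at 0 in both libraries of SAT on HFD. The part of mural cells and tenocytes in the members' ratios was not tested.

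Most T cell, macrophage and neutrophil markers were lower in KO in the SAT chow pair, where the members' ratios were largest. There T cell markers were lower beyond 2-fold in 6 of 10 cases, macrophage markers in 5 of 9 (summed 2138 CPM in WT and 967 in KO) and neutrophil markers in 6 of 7 tested (281 and 76.1 CPM), where 11.5% of all genes were. The macrophage marker *Cd14* was higher instead (1.99). Of 8 B cell markers 1 was lower beyond 2-fold, a share close to that of all genes, and 2 were higher beyond counting error. In muscle 4 of 9 macrophage markers were lower beyond 2-fold, and in VAT 0 of 9 were. The part of these cells in the members' ratios was not tested. Macrophage markers summed to 473 to 2138 CPM in SAT, 5593 to 5932 in muscle and 14552 to 14756 in VAT, and B cell markers to 176 to 177 CPM in VAT and 972 to 2233 elsewhere. Neutrophil markers reached 26077 and 30081 CPM in muscle and 65.8 to 460 elsewhere. Epithelial markers were at 192 to 253 CPM in SAT on chow and at 6.65 to 47.3 elsewhere. Mesothelial markers were at 7.67 to 83.5, Schwann cell markers at 143 to 214 and satellite cell markers at 88.3 to 462 CPM. The library with the highest mesothelial sum, SAT chow WT, had *Msln*, *Upk3b* and *Wt1* at 0 counts. The one with the highest satellite cell sum, VAT labelled KO, had *Pax7*, *Myf5*, *Myod1* and *Chodl* at 0 counts.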

How the data were processed

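RNAseq was performed by the authors on mG+ cells of 8 libraries, 1 per genotype in each of 4 conditions. The values are the deposited read counts per gene, whole numbers with no normalization, which the authors made with HISAT2 2.0.5 on GRCm38/mm10 per the submitters' processing notes. The counting program, the read length and the use of strand are not given in the sources used here. Labels give column-purified RNA and a SMARTER mRNA kit, the paper's methods Trizol.

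The 10 genes and the 21 lists set beside them (12 of cell type markers, 211 genes in all) were chosen with earlier results of these data known. Libraries were scaled by TMM in edgeR 4.0.16 (R 4.3.3). Within a pair, log2 ratios used a prior count of 0.5 and exact conditional binomial 95% intervals, for genes averaging 10 counts or more in the pair. With 1 library a group there was no test. Across libraries, edgeR's robust quasi-likelihood test used an additive model of condition and genotype (3 residual degrees of freedom, 16971 genes), with Benjamini-Hochberg adjustment at 0.05. The SE given with its estimates was back-calculated, as the absolute log2 change over the square root of the F statistic. That statistic uses a spread moderated across genes. Nothing states that the libraries are from separate animals. With 1 library per genotype and condition, the residual of this model also holds differences of KO over WT between the 4 conditions. Its p-values thus do not measure spread between replicate libraries alone. Alternatives were DESeq2 1.42.0 (size factors, Wald test), library totals, upper quartile, a prior count of 5, filters of none and 50 counts, no pair or genotype term, and each pair left out. Subtraction of the median of genes of the same length and leaving out single libraries were chosen after seeing the data. Procedures were tested on simulated data. Each member was described in every library. Of the other lists, up to 3 genes a list and comparison were named, those with the largest ratio among the genes called, and the 10 genes with the highest correlation with *Pdgfra*. Sequences are from RefSeq. Analysis used Python 3.11.15.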

Additional observations from a re-analysis of the deposited data

Results flagged for a closer look

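The following 6 differences are set apart because KO over WT lay on opposite sides of 0 in 2 pairs, beyond counting error in both and beyond 2-fold in at least 1. With 1 library per genotype and condition these differences were not tested. The log2 ratio in SAT on chow minus that in SAT on HFD was 3.99 for *Fbn1*, 3.14 for *Pdgfra*, 3.13 for *Mfap5*, 2.18 for *Clec3b* and 1.85 for *Dcn*. For *Dcn* the ratio in muscle on chow also exceeded that in SAT on HFD, by 1.49. The first 5 differences share the SAT chow WT library, which stood apart in *Malat1* (299 CPM) and against which the ratio of all genes moved with gene length. The *Dcn* difference between muscle and SAT on HFD does not involve that library.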

How the results depend on the processing

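The summed ratio of the members kept its sign in every pair under all scalings. It was −0.19 with library totals in SAT on HFD. In SAT on chow it was 1.27 with DESeq2 size factors, 1.39 with library totals, 1.35 with upper quartile scaling and 1.41 without *Ly6a*. In VAT it was 0.47 with DESeq2 size factors and 0.45 with upper quartile scaling, and in muscle 0.81 with library totals, 0.59 with upper quartile scaling and 0.70 without *Ly6a*. The number of members beyond 2-fold in SAT on HFD was 1 less the median of genes of the same length (*Mfap5*, lower).

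For KO over WT across the pairs, 1 gene was called (19 by DESeq2's Wald test, 42 without a filter, 0 with no pair or genotype term, and 0 to 2 with each pair left out), and 0 members under any of these. For SAT on HFD over chow, 0 genes were called, against 246 by the Wald test and 317 without a filter, with 0 members. Leaving out single libraries gave 0 to 441 genes and 0 to 2 members. For VAT over SAT, 849 genes were called, 2280 by the Wald test with 2 members and 2100 without a filter with 1 member. Leaving out single libraries gave 108 to 3510 genes and 0 to 2 members. For muscle over SAT, 215 genes were called, 1053 by the Wald test with 1 member, 971 without a filter and 338 with no pair or genotype term. Leaving out single libraries gave 39 to 1771 genes and 0 to 3 members. For muscle over VAT, 343 genes were called, 1253 by the Wald test with 2 members, 1159 without a filter with 3 members and 539 with no pair or genotype term. Leaving out single libraries gave 39 to 81 genes and 0 members. The largest of these numbers arise without the SAT chow KO library. Without it *Fbn1* in muscle over SAT on chow was 1.84, against −0.32 with all libraries and −1.30 without the SAT chow WT library. A lone library is assumed to vary like the rest. The cause of these changes was not tested.

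No paired analysis was possible because the labels give no replicate numbers that groups share; the pair block is the tissue and diet. With 1 library per genotype and condition, depth sets the counting intervals but not the spread between animals.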
